A study of Mus musculus with 2 samples.

Results

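The 10 genes described here encode a signalling axis between injured photoreceptors and glia: the cytokine Lif, its receptor chains Lifr, Il6st and Osmr, the transcription factor Stat3 with its targets Socs3 and Cebpd, the endothelin Edn2 with its receptor Ednrb, and the growth factor Fgf2. They were chosen by symbol, with their levels in these same cells already in view, so their differences between the groups are a description and carry no test. They are 10 of the 31053 genes in the count tables, and all 10 were found. The OIR library came from retinas pooled from 6 wild-type C57BL/6 mice at postnatal day 17 with oxygen-induced retinopathy, for which pups and their nursing mother breathed 75% oxygen from day 7 to day 12 and then room air. The control library came from retinas pooled from 6 wild-type C57BL/6 mice of the same age. In both groups the retinas were digested with papain, and cells bound by magnetic beads against CD11b, a surface protein of myeloid cells, were sequenced in droplets. Each group is 1 library of pooled mice, so nothing here can be set against a spread between mice. Every interval is at 95% and accounts for counting error alone.

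Leukaemia inhibitory factor (Lif) is a cytokine of the interleukin-6 family that Müller glia, the radial support cells of the retina, make when photoreceptors are injured. It binds Lifr together with gp130, encoded by Il6st, and the bound receptors activate STAT3, which induces its own inhibitor Socs3. In mouse models of photoreceptor degeneration, injured photoreceptors make the peptide endothelin 2, whose receptor Ednrb lies on Müller glia, and loss of Lif lowers both the endothelin 2 and the Fgf2 response and hastens photoreceptor death.

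After filtering, 6136 OIR cells with a median of 2810 UMIs (unique molecular identifiers, each marking 1 RNA molecule) and 8582 control cells with a median of 1654 UMIs were kept. The libraries shared 28 cell barcodes among these cells. Although the labels call the samples retinal microglia, cells with microglial markers made up 10.4% of the OIR cells and 9.83% of the control cells, and cells with rod photoreceptor markers made up 59.8% and 78.4%. Of the classes named from marker genes, 5 had at least 150 cells in each library. These were rod-like cells (3668 OIR, 6731 control), cone-like cells (659 OIR, 319 control), bipolar-like cells (473 OIR, 268 control), Müller glia-like cells (442 OIR, 275 control) and microglia-like cells (636 OIR, 844 control). A level is the sum of a gene's UMIs in all cells of a class, scaled to counts per 1000000 UMIs of that class (CPM). A rod-like cluster led by the Y-linked genes Eif2s3y, Ddx3y and Uty held 137 OIR and 844 control cells, so Y-linked RNA differed between the pools.

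The named classes were not free of rod RNA. The 7 rod markers, summed, reached 57.5% of their rod-like level in OIR Müller glia-like cells and 40.3% in control Müller glia-like cells. In cone-like cells they reached 74.2% in OIR and 79.6% in control, in bipolar-like cells 10.3% and 15.3%, and in microglia-like cells 4.62% and 3.73%. The level that this share of rod RNA would carry into a class is therefore given below beside members' values in these classes. The 9 Müller glia markers summed to 8766 CPM in OIR Müller glia-like cells and 15863 CPM in control ones, and the 9 microglia markers to 9549 and 18165 CPM in OIR and control microglia-like cells. All 9 markers of each class were detected in both libraries. In rod-like cells the 9 Müller glia markers summed to 514 CPM in OIR and 273 CPM in control. What Müller glial RNA would carry into rod-like cells was not computed.

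**Figure D1:**
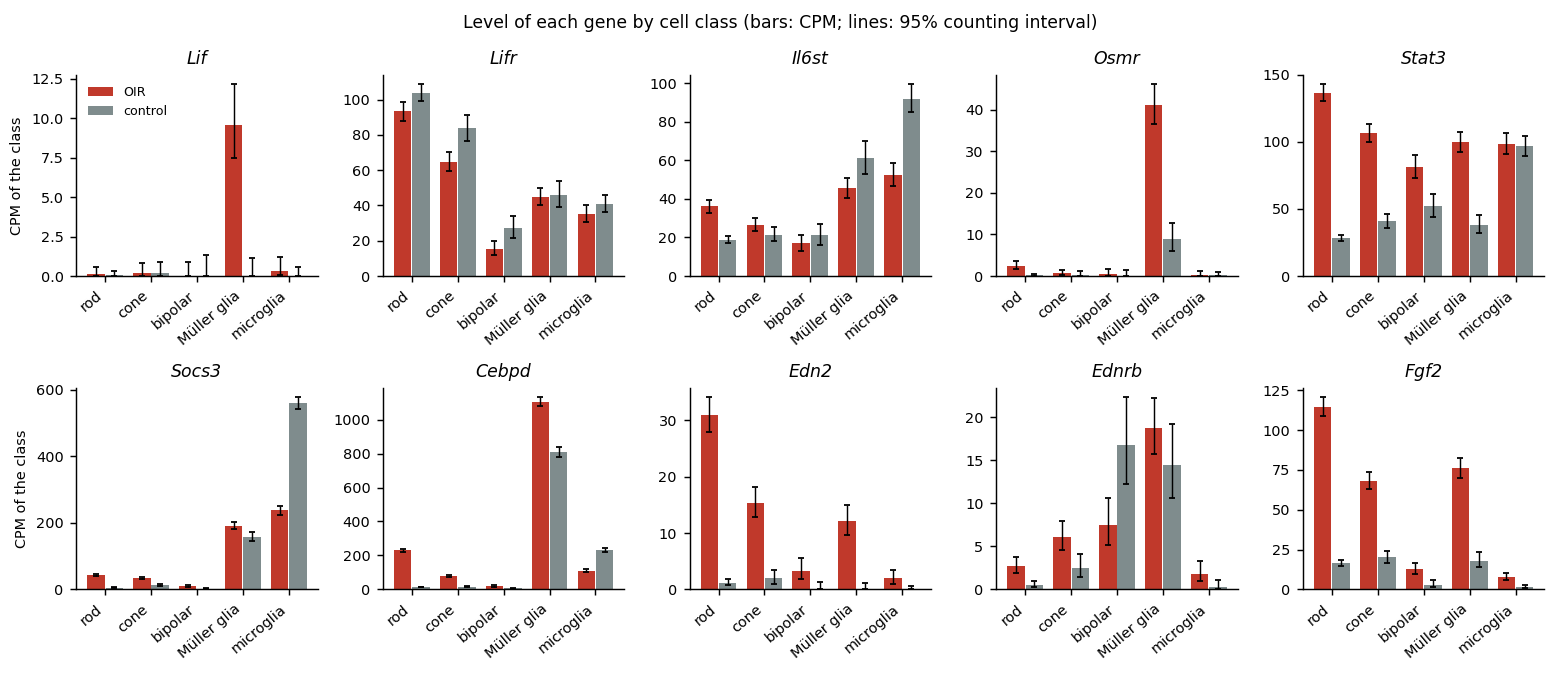
Level of each gene in CPM (vertical axes, 1 scale per gene) in 5 cell classes, OIR bars left of control bars, with 95% counting intervals as lines. Lif and Osmr are high in Müller glia-like cells, Edn2 and Fgf2 in OIR rod-like cells, and Socs3 is higher in OIR rod-like cells but lower in OIR microglia-like cells.

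Lif transcripts were found almost only in OIR Müller glia-like cells. The gene (ENSMUSG00000034394) lies at chr11:4257557-4272514 of build mm10 on the plus strand. Those cells held 68 Lif UMIs, or 9.58 CPM (7.44 to 12.1), and control Müller glia-like cells held 0, where the limit set by finding none, 3 counts, would be 0.92 CPM. Against that limit Lif was 10.4-fold higher in OIR Müller glia-like cells, a log2 ratio of 3.38 whose interval began at 3.04. The other OIR classes with any Lif were rod-like, cone-like, microglia-like and border macrophage-like cells, with 2 UMIs each, so that Müller glia-like cells held 89.5% of the 76 Lif UMIs of OIR cells. Control cells held 2 Lif UMIs in all. Rod RNA would carry 0.09 CPM of Lif into OIR Müller glia-like cells. A Lif UMI was seen in 27 of 442 OIR Müller glia-like cells (6.11%), and, after each cell was thinned to 1500 UMIs, in 6 of 407 (1.47%, 0.543 to 3.18). In control, 0 of 275 Müller glia-like cells had one before thinning and 0 of 266 after it, which allows a share of cells with a UMI of up to 1.38% (Clopper-Pearson), so at equal depth the intervals overlap. With the stricter cell filter only 30 control Müller glia-like cells remained, and the bound on the Lif ratio was 0.07 on the log2 scale.

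The genes most like Lif over the 10 sums of 5 classes and 2 libraries were Timp1 (Pearson r = 0.99), Serpina3n (r = 0.99), Tagln (r = 0.97), Aebp1 (r = 0.96) and Akap12 (r = 0.96), on log2(CPM + 5). The sums share libraries and depth, and Lif itself stayed under 10 CPM, so this ranks genes by a single high point in OIR Müller glia-like cells. Timp1, an inhibitor of matrix proteases, and Serpina3n, a serine protease inhibitor, are both genes that reactive glia make.

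Of 11 other ligands and receptors of the family, no gene reached 20 CPM in rod-like cells and none of those that reached it in another of the 5 classes was at least 2-fold higher in OIR. Osm, the ligand of Osmr, had 185 UMIs (30.9 CPM) in OIR microglia-like cells and 208 UMIs (31.1 CPM) in control ones. Its log2 ratio of OIR over control was -0.01 (-0.30 to 0.28). Border macrophage-like, monocyte-like and neutrophil-like cells of OIR also held Osm, with 32, 17 and 37 UMIs, and those of control with 2, 2 and 14 UMIs. Over all genes these OIR classes held only 996458, 369313 and 690215 UMIs, against 5990982 in OIR microglia-like cells. The control ones held 81525, 116730 and 151593 UMIs, against 6694621. Osm was thus a transcript of several myeloid classes, not of microglia-like cells alone. Il6 had 23 UMIs in OIR and 23 in control microglia-like cells, and Cntf, another ligand of the family, had 2 UMIs in OIR Müller glia-like cells and none in control ones. Cntfr, the receptor chain that binds ciliary neurotrophic factor, had 47.1 CPM in OIR and 81.9 CPM in control Müller glia-like cells, a log2 ratio of -0.80 (-1.04 to -0.56), and Il11ra1 one of -0.76 (-1.04 to -0.48). The 9 Müller glia markers, summed, were lower in these cells by a similar fold, at 8766 CPM in OIR and 15863 CPM in control. In microglia-like cells Clcf1, a ligand of that receptor, and Il6ra, the interleukin-6 receptor chain, were lower in OIR by more than 2-fold, with log2 ratios of -1.60 and -1.58. Of the 11 listed genes, 2 of the 4 that reached 20 CPM in microglia-like cells were thus lower, where 5.54% of all genes measured there were lower and 5.0% higher, and none of the 2 in Müller glia-like cells passed 2-fold.

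Lifr was spread over all 5 classes and differed little. Rod-like cells held 93.3 CPM (88.1 to 98.8) in OIR and 104 CPM (99.4 to 108.8) in control, a log2 ratio of -0.16 (-0.26 to -0.05). Cone-like cells held 64.6 CPM in OIR and 83.8 CPM in control, a log2 ratio of -0.38, and rod RNA would carry 69.2 and 82.8 CPM into them. Müller glia-like cells held 44.9 CPM in OIR and 46.0 CPM in control, where rod RNA would carry 53.7 and 41.9 CPM, so the Lifr level there was no higher than rod RNA alone would give in OIR. In microglia-like cells Lifr stood well above what rod RNA would bring. They held 35.4 CPM in OIR and 40.9 CPM in control, against 4.31 and 3.88 CPM that rod RNA would give. Bipolar-like cells had the lowest level, 15.5 CPM in OIR and 27.3 CPM in control, a log2 ratio of -0.82 (-1.32 to -0.32), where rod RNA would carry 9.59 and 15.96 CPM, lower in OIR by a similar fold. In the bipolar-like cluster led by Scgn, with 242 OIR and 205 control cells, Lifr had 17.7 and 27.1 CPM, a log2 ratio of -0.62. In each library the rod-like interval lay above that of every other of the 5 classes.

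Il6st, the chain that all receptors of the family share, was higher in OIR rod-like cells and lower in OIR microglia-like cells. Rod-like cells held 36.1 CPM (32.9 to 39.6) in OIR and 18.8 CPM (16.9 to 20.9) in control, with a log2 ratio of 0.94 (0.74 to 1.15), just under 2-fold. Microglia-like cells held 52.6 CPM (46.9 to 58.7) in OIR and 92.0 CPM (84.9 to 99.6) in control, a log2 ratio of -0.81 (-1.01 to -0.61), and rod RNA would carry 1.67 and 0.70 CPM. In the largest control microglia-like cluster, led by Selplg, which held 149 OIR and 675 control cells, Il6st had 71.3 CPM in OIR and 96.0 CPM in control, a log2 ratio of -0.43 (-0.75 to -0.12). Müller glia-like cells held 45.5 CPM in OIR and 61.0 CPM in control, a log2 ratio of -0.42 (-0.68 to -0.16), where rod RNA would carry 20.8 and 7.57 CPM. In cone-like and bipolar-like cells the interval of the ratio included 0. Cone-like cells held 26.5 and 21.5 CPM of Il6st in OIR and control, and rod RNA would carry 26.8 and 15.0 CPM.

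Osmr, the oncostatin M receptor chain that pairs with gp130, was the receptor that differed most in Müller glia-like cells. They held 292 UMIs, or 41.1 CPM (36.6 to 46.1), in OIR and 29 UMIs, or 8.89 CPM (5.96 to 12.8), in control, a log2 ratio of 2.21 (1.66 to 2.81). Rod RNA would carry 1.44 CPM in OIR and 0.07 CPM in control. After thinning, 29 of 407 OIR cells (7.13%, 4.82 to 10.1) and 5 of 266 control cells (1.88%, 0.613 to 4.33) had an Osmr UMI. Pigment epithelium-like cells, at 167 CPM (111 to 242) in OIR and 149.6 CPM (83.7 to 247) in control, and endothelial-like cells, at 34.0 and 38.3 CPM in OIR and control, also held Osmr, and their libraries did not differ beyond counting error. Rod-like cells held 32 Osmr UMIs, or 2.50 CPM, in OIR and 3 UMIs, or 0.16 CPM, in control, a log2 ratio of 3.95 (2.27 to 6.30) at a low level. Müller glia markers in rod-like cells were also higher in OIR, at 514 CPM against 273 CPM in control. The part of Müller glial RNA in rod-like Osmr was not tested. In microglia-like cells each library held 2 Osmr UMIs.

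Stat3, the transcription factor that these receptors activate, was higher in OIR in rods, cones, bipolar cells and Müller glia as named here, and in microglia-like cells the interval of its ratio included 0. Rod-like cells held 136.6 CPM (130.2 to 143) in OIR and 28.4 CPM (26.1 to 31.0) in control, a log2 ratio of 2.26 (2.12 to 2.41). Müller glia-like cells held 99.9 CPM (92.7 to 107.5) in OIR and 38.3 CPM (31.9 to 45.7) in control, a log2 ratio of 1.38 (1.11 to 1.67), where rod RNA would carry 78.5 CPM and 11.4 CPM, so the level from rod RNA differs between the libraries by about as much as the measured level. The part of that RNA in the result was not tested. Cone-like cells, which hold still more rod RNA, had a similar ratio. They held 106.7 CPM in OIR and 40.7 CPM in control, a log2 ratio of 1.39 (1.19 to 1.60), and rod RNA would carry 101 and 22.6 CPM. In bipolar-like cells, with little rod RNA, the ratio was smaller but its interval still excluded 0. These cells held 81.4 CPM (73.0 to 90.4) in OIR and 52.0 CPM (43.8 to 61.2) in control, a log2 ratio of 0.65 (0.36 to 0.94), of which rod RNA would give 14.0 and 4.36 CPM. Microglia-like cells held 98.5 CPM in OIR and 96.8 CPM in control, a log2 ratio of 0.02 (-0.14 to 0.19).

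Socs3, the feedback inhibitor of the pathway, went in opposite directions in rod-like and microglia-like cells. Rod-like cells held 538 UMIs, or 42.1 CPM (38.6 to 45.8), in OIR and 90 UMIs, or 4.86 CPM (3.91 to 5.98), in control, a log2 ratio of 3.11 (2.79 to 3.45). The part of Müller glial RNA in rod-like Socs3 was not tested. In contrast, microglia-like cells held 237 CPM (225 to 249.7) in OIR and 558.5 CPM (540.8 to 576.7) in control, a log2 ratio of -1.24 (-1.33 to -1.15). Müller glia-like cells had a high level in both libraries, 191.5 CPM (181 to 202) in OIR and 158 CPM (144.6 to 172) in control, a log2 ratio of 0.28 that turned to -0.81 under the stricter cell filter. Rod RNA would carry 24.2 and 1.96 CPM of Socs3 into OIR and control Müller glia-like cells. The Müller glial level was thus far above rod RNA, whereas the cone-like level was close to it in OIR. Cone-like cells held 33.2 CPM in OIR and 12.98 CPM in control, and rod RNA would carry 31.2 and 3.87 CPM. The low counts of bipolar-like cells were 41 UMIs in OIR and 2 in control. The small myeloid classes went the way of microglia-like cells. Neutrophil-like cells (49 OIR, 15 control) held 177 CPM in OIR and 363 CPM in control, border macrophage-like cells (66 OIR, 12 control) held 119 and 368 CPM, and monocyte-like cells (28 OIR, 10 control) held 189.5 and 299.8 CPM. The interval of the ratio excluded 0 in each of these classes, but the border macrophage-like cells sat in different clusters. All 30 control UMIs came from the 10 control cells of a cluster led by Cd74, where Socs3 had 300.8 CPM in 11 OIR cells and 472.5 CPM in control, a log2 ratio of -0.65 (-1.40 to 0.10), and the Pf4-led cluster held 84 UMIs in 55 OIR cells and 0 in 2 control cells. Endothelial-like cells, 16 in OIR and 47 in control and mixed with pericyte genes, held 131 CPM and 42.5 CPM.

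Cebpd, a transcription factor of the acute-phase response that STAT3 induces, differed in the same directions as Socs3 in rod-like, cone-like, Müller glia-like and microglia-like cells. Rod-like cells held 2944 UMIs, or 230.3 CPM (222 to 239), in OIR and 257 UMIs, or 13.9 CPM (12.2 to 15.7), in control, a log2 ratio of 4.05 (3.87 to 4.24). Müller glia markers there summed to 514 CPM in OIR and 273 CPM in control. The part of Müller glial RNA in rod-like Cebpd was not tested. Müller glia-like cells held its highest level, 1106 CPM (1082 to 1131) in OIR and 808 CPM (777 to 839) in control, a log2 ratio of 0.45 (0.39 to 0.52) that turned to -0.81 under the stricter cell filter, and rod RNA would carry 132 and 5.59 CPM. Cone-like cells held 76.7 CPM in OIR and 14.8 CPM in control, a log2 ratio of 2.38 (2.06 to 2.71), although rod RNA at the marker share would carry 171 CPM into OIR cone-like cells, more than was measured. The microglial level, as for Socs3, was lower in OIR. Microglia-like cells held 109.8 CPM (101.6 to 118.5) in OIR and 230.2 CPM (219 to 242) in control, a log2 ratio of -1.07 (-1.20 to -0.93). Spidr, a gene on the opposite strand that overlaps Cebpd by 1808 bases, was also higher in OIR rod-like cells, with 217 UMIs against 58 in control, and whether the counting used strand is not given in the sources used here.

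**Figure D2:**
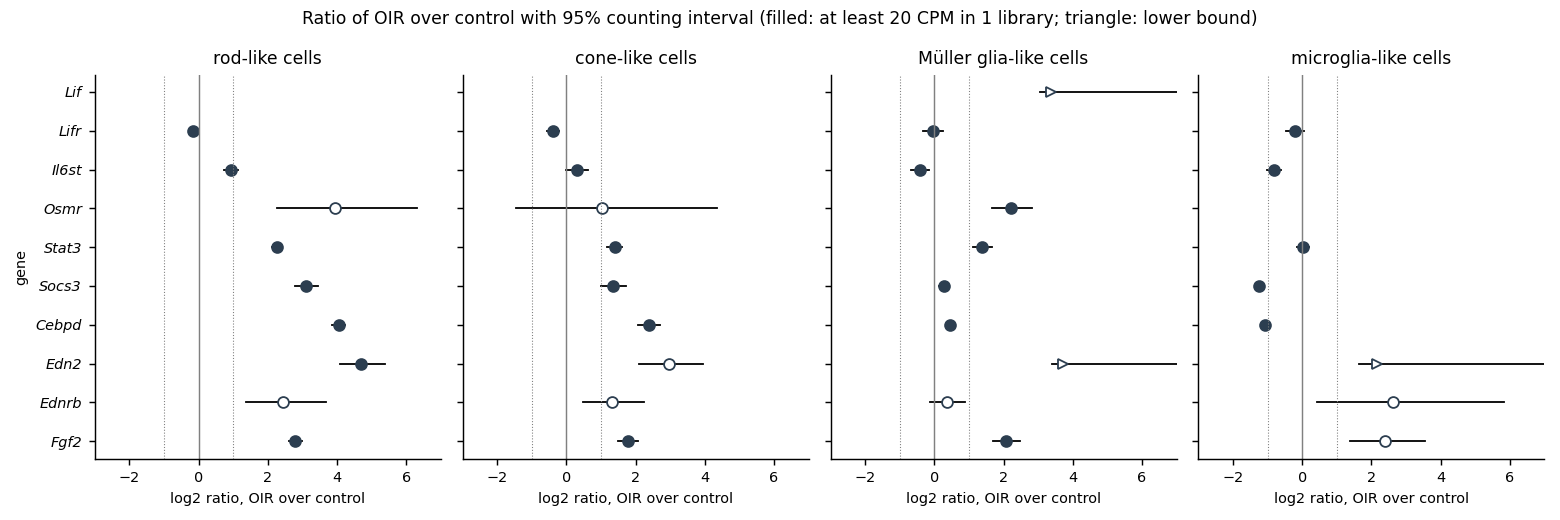
Log2 ratio of OIR over control (horizontal axes) of each gene in 4 classes, with 95% counting intervals as lines; filled points reached 20 CPM in 1 library, open points did not, and triangles are lower bounds against a control count of 0. Stat3, Socs3, Cebpd, Edn2 and Fgf2 lie right of the dotted 2-fold line in rod-like cells, and Socs3 and Cebpd left of it in microglia-like cells.

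Sequence before the gene starts was searched for the letters TTCNNNGAA, which STAT proteins bind, TGANTCA, which AP-1 proteins bind, and ACGTG, the core of the hypoxia response element, on both strands. RefSeq promoters of build GRCm38.p6 were at hand for 9 of the 10 genes, all but Cebpd, and the 250 bases before each start were used. The windows of Socs3, Fgf2, Osmr, Lifr and Ednrb, the Socs3 match included, lie inside the annotated bounds of these genes in mm10 and may hold transcribed sequence. TTCNNNGAA was found before Socs3 only and TGANTCA before Lif only, and ACGTG before none of the 9. Of all 32851 promoters in the table, 7.02% hold TTCNNNGAA, 6.75% TGANTCA and 16.6% ACGTG in this window. Shown are the Socs3 match, 154 bases before the start (chr11:117969501-117969530, minus strand), the Lif match, 228 bases before the start (chr11:4257329-4257358, plus strand), and the whole window of Edn2, the gene with the highest rod-like ratio, which held none of the 3 (chr4:120160956-120161205, plus strand). Capitals mark the matched letters, and a match is not a binding site.
Socs3: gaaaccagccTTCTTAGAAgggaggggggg
Lif: ccagtcagctgTGACTCAggccatagtggc
Edn2: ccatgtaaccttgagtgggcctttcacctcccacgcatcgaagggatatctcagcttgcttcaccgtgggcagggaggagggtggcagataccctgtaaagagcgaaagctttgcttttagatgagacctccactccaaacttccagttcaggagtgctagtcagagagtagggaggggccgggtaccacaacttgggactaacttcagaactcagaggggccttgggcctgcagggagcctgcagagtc

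Edn2, which encodes the peptide endothelin 2, had the highest ratio of all 6594 genes with at least 20 CPM in rod-like cells. The gene (ENSMUSG00000028635) lies at chr4:120161206-120167360 of mm10 on the plus strand. Rod-like cells held 395 Edn2 UMIs, or 30.9 CPM (27.9 to 34.1), in OIR and 22 UMIs, or 1.19 CPM (0.75 to 1.80), in control, a log2 ratio of 4.70 (4.08 to 5.39). Cone-like cells held 138 UMIs, or 15.3 CPM, in OIR and 12 UMIs, or 1.97 CPM, in control, a log2 ratio of 2.96 (2.11 to 3.95), and rod RNA would carry 22.9 and 0.95 CPM into them. Müller glia-like cells held 86 UMIs, or 12.1 CPM (9.69 to 15.0), in OIR and 0 in control, where rod RNA would carry 17.8 CPM in OIR. With control set to 3 counts, Edn2 was 13.2-fold higher there in OIR, and the interval of the log2 ratio began at 3.39. Under the stricter cell filter, with 30 control cells left, the bound on this log2 ratio was 0.63, against 3.72 here. Bipolar-like cells held 14 and 0 UMIs in OIR and control, 3.28 CPM in OIR against 3.18 CPM that rod RNA would give, and microglia-like cells held 12 and 0 UMIs, 2.003 CPM against 1.43 CPM. These counts outside rod-like cells were small. In none of the cone-like, bipolar-like, Müller glia-like and microglia-like classes was the OIR Edn2 level beyond counting error above that given by the rod marker share. Border macrophage-like cells held 5 Edn2 UMIs in OIR, or 5.02 CPM (1.63 to 11.7), where rod RNA would carry 1.12 CPM, and 0 in control. After thinning, 89 of 1848 OIR rod-like cells (4.82%, 3.89 to 5.89) and 4 of 2974 control ones (0.134%, 0.0367 to 0.344) had an Edn2 UMI, while 0 of 541 OIR microglia-like cells did. Before thinning, 12 of 636 OIR microglia-like cells (1.89%) had one. Median depths were 1509.5 UMIs in OIR rod-like and 4955 UMIs in OIR microglia-like cells.

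Ednrb, the receptor that binds endothelin 2, showed no difference beyond counting error in Müller glia-like cells. They held 133 UMIs, or 18.7 CPM (15.7 to 22.2), in OIR and 47 UMIs, or 14.4 CPM (10.6 to 19.2), in control, a log2 ratio of 0.38 (-0.11 to 0.89). An interval this wide allows OIR to lie anywhere from slightly lower to nearly 2-fold higher. In control, bipolar-like cells had a level like that of Müller glia-like cells. Bipolar-like cells held 7.50 CPM in OIR and 16.7 CPM in control, a log2 ratio of -1.16 (-1.85 to -0.47). Their make-up differed, since a cluster led by Pcp2 held 231 of the 473 OIR and 63 of the 268 control cells. In the other bipolar-like cluster, led by Scgn, Ednrb had 10.6 CPM in OIR and 19.5 CPM in control, a log2 ratio of -0.88. Rod-like cells held 34 and 9 UMIs and cone-like cells 55 and 15 UMIs in OIR and control, under 20 CPM in each. The highest OIR level was in border macrophage-like cells, whose 66 OIR cells held 172 UMIs, or 173 CPM (147.8 to 200.4), and whose 12 control cells held 3 UMIs, or 36.8 CPM (7.59 to 107.5), a log2 ratio of 2.23 (0.66 to 4.52). Different clusters held most of this class in each library. All 172 OIR and 3 control UMIs lay in the cluster led by Pf4, Mrc1 and Ccl7, with 55 OIR cells and 2 control cells, and within it Ednrb had 195 CPM in OIR and 166 CPM in control, a log2 ratio of 0.23 (-1.34 to 2.52). OIR border macrophage-like cells held 37.7% of the Ednrb UMIs of all OIR cells. Of the 7 other genes of the endothelin system, no gene reached 20 CPM in rod-like, bipolar-like or microglia-like cells. Edn1 was an endothelial-like transcript with 235 UMIs (570.2 CPM) in OIR and 90 UMIs (127.6 CPM) in control, and Ece1, which cleaves the endothelin precursors, had 50.9 and 42.6 CPM in OIR and control cone-like cells.

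Fgf2, a growth factor that protects photoreceptors, was higher in OIR in all 5 classes. The gene (ENSMUSG00000037225) lies at chr3:37348346-37410108 of mm10 on the plus strand. Rod-like cells held 114.5 CPM (108.7 to 120.5) in OIR and 16.4 CPM (14.6 to 18.4) in control, a log2 ratio of 2.80 (2.62 to 2.98). Cone-like cells held 68.3 CPM (63.0 to 73.9) in OIR and 20.04 CPM (16.6 to 23.9) in control, a log2 ratio of 1.77, where rod RNA would carry 85.0 and 13.1 CPM. Müller glia-like cells held 76.1 CPM (69.8 to 82.8) in OIR and 18.1 CPM (13.8 to 23.3) in control, a log2 ratio of 2.07 (1.68 to 2.48), where rod RNA would carry 65.9 and 6.61 CPM. Bipolar-like cells held 12.7 and 2.91 CPM, against 11.8 and 2.52 CPM from rod RNA, and microglia-like cells 7.85 and 1.49 CPM, against 5.29 and 0.61 CPM, in OIR and control. In OIR the measured value thus lay below what the rod marker share would give in cone-like cells, matched it within counting error in bipolar-like cells, and lay slightly above it in Müller glia-like and microglia-like cells. The part of rod RNA in these values was not tested. Fgf2os, an antisense transcript that overlaps Fgf2 by 1395 bases, had 312 UMIs in OIR and 21 in control rod-like cells, with a log2 ratio of 4.43 (3.79 to 5.14), and with strand use not stated its reads and those of Fgf2 are uncertain. Nudt6, on the opposite strand with 5199 shared bases, had 144 UMIs in OIR and 91 in control rod-like cells.

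**Figure D3:**
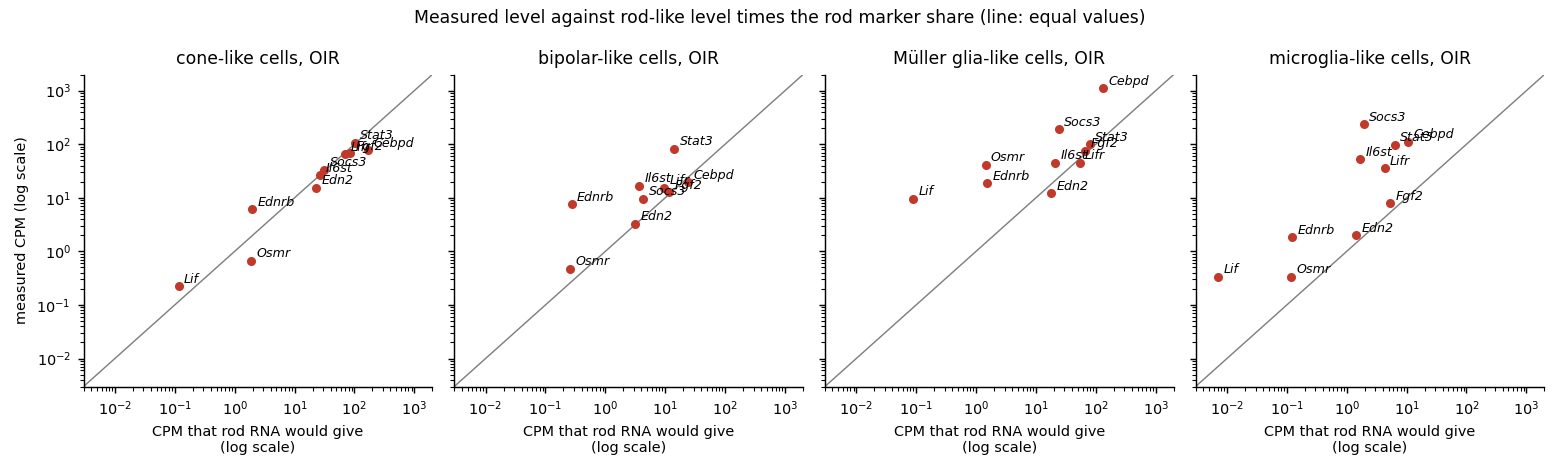
Measured CPM in OIR (vertical, log scale) against the CPM that rod RNA would give, the rod-like level times the class's rod marker share (horizontal, log scale); the line marks equal values and a gene with a count of 0 is left out. Edn2 and Fgf2 lie near the line in all 4 classes, while Lif, Osmr, Socs3 and Cebpd lie far above it in Müller glia-like cells and Stat3, Socs3 and Il6st in microglia-like cells.

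Set against all genes, the members stood out by count in photoreceptor-like cells. A gene was counted where it reached 20 CPM in 1 library, differed by at least 2-fold, and had an interval of the ratio that excluded 0. In rod-like cells 5 of the 7 members with 20 CPM were higher in OIR (Stat3, Socs3, Cebpd, Edn2 and Fgf2) and none lower, against 1.90% of all measured genes higher and 0.212% lower. In cone-like cells 4 of 6 were higher (Stat3, Socs3, Cebpd and Fgf2) and none lower, against 0.786% and 0.216%. Rod RNA would carry 101, 31.2, 171 and 85.0 CPM of these 4 genes into OIR cone-like cells, where 106.7, 33.2, 76.7 and 68.3 CPM were measured. The part of rod RNA in this count was not tested. In Müller glia-like cells 3 of 7 were higher (Osmr, Stat3 and Fgf2) and none lower, against 2.86% and 3.98%. In microglia-like cells none of 5 was higher and 2 were lower (Socs3 and Cebpd), against 5.0% and 5.54%. In bipolar-like cells none of 3 passed in either direction, against 1.39% higher and 1.16% lower. The median log2 ratio of the measured members was 2.80 in rod-like, 1.37 in cone-like cells, -0.32 in bipolar-like cells, 0.45 in Müller glia-like cells and -0.81 in microglia-like cells, while for all measured genes it was 0.05, -0.02, -0.07, -0.03 and -0.12. Since the members were chosen with these levels known, nothing further is read from these counts.

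The rod-like difference was not confined to a single cluster. Clusters were formed without the members, the listed genes and the genes that overlap them. One rod-like cluster, led by E2f6, Pcolce and Lad1, with Edn2 and Fgf2 also among its 10 leading genes, held 752 OIR cells and 20 control cells. In its OIR cells Edn2 reached 88.9 CPM, Fgf2 260.6 CPM, Stat3 275 CPM, Socs3 109 CPM and Cebpd 632 CPM. Its 20 control cells held 4 Edn2 UMIs, 13 Fgf2 UMIs, 9 Stat3 UMIs, 9 Socs3 UMIs and 65 Cebpd UMIs, or 62.9, 204, 141, 141 and 1021 CPM. The cluster held 20.5% of the OIR rod-like cells, 44.8% of their Edn2 UMIs, 42.8% of their Cebpd UMIs, 40.3% of their Socs3 UMIs, 35.5% of their Fgf2 UMIs and 31.4% of their Stat3 UMIs. It held 18.3% of their Lifr UMIs. A few very deep cells also weighed on the rod-like sums. The 23 OIR cells of a cluster led by Necab2, Fabp7 and Prss56 held 18.3% of the Cebpd UMIs and 21.6% of the Socs3 UMIs of OIR rod-like cells, and its 11 control cells held 34.2% and 35.6% of those of control. With doublet calls kept, a cluster led by Prss56, Necab2 and Itm2a took the name Müller glia. The 14 OIR cells of a cluster led by Prss56, Fgf2 and Pcolce held 10.7% of the Cebpd and 14.1% of the Fgf2 UMIs. Without the very deep clusters the rod-like log2 ratio was 4.35 for Cebpd and 3.43 for Socs3.

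Outside that cluster, 7 rod-like clusters had at least 100 cells in each library. Stat3 was higher in OIR in all 7 with an interval that excluded 0, with log2 ratios from 1.69 to 2.67, as were Fgf2, from 1.64 to 2.50, and Cebpd, from 3.26 to 5.52. Socs3 was higher in OIR in 5 of the 7 with an interval that excluded 0, and its ratios ran from 0.42 to 3.11. Edn2 ranged over these clusters from 5.34 to 30.5 CPM in OIR and from 0 to 2.35 CPM in control, with an interval excluding 0 in 6 of 7. In the cluster led by the Y-linked genes, the log2 ratio of Stat3 was 2.0 (1.17 to 2.80), that of Fgf2 2.03 (0.96 to 3.05) and that of Cebpd 4.80 (3.58 to 6.24). With the E2f6-led cluster left out, the rod-like log2 ratios were 1.99 for Stat3, 2.76 for Socs3 and 2.47 for Fgf2.

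**Figure D4:**
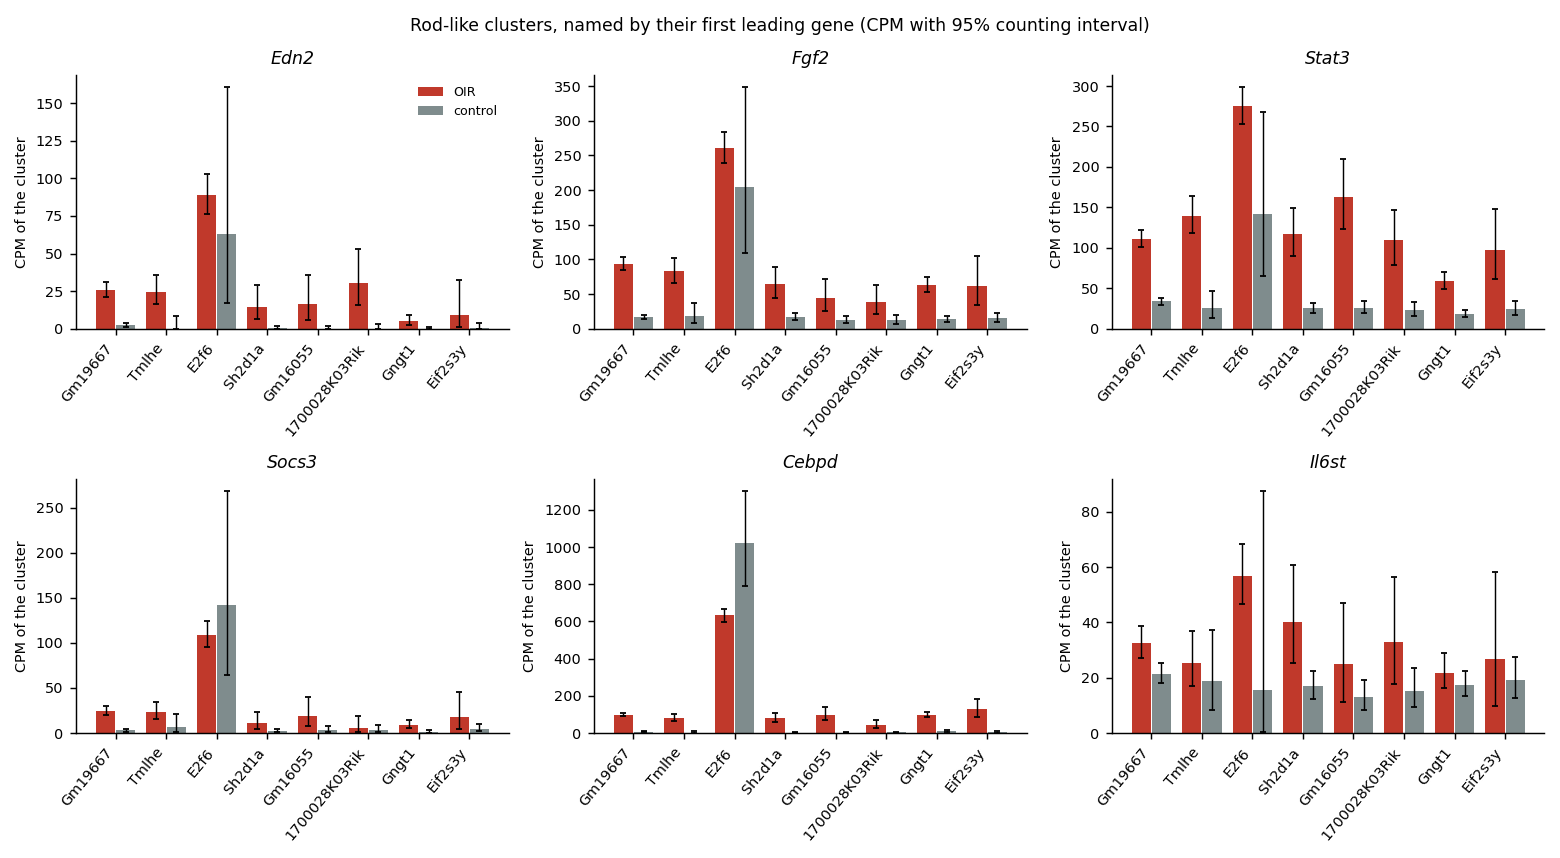
CPM of 6 genes (vertical axes) in rod-like clusters with at least 100 OIR cells, named by their first leading gene and ordered by their number of OIR cells, OIR bars left of control bars, with 95% counting intervals as lines. The E2f6-led cluster is highest for Edn2, Fgf2, Stat3, Socs3 and Cebpd in OIR, its 20 control cells have wide intervals, and OIR lies above control for Stat3, Cebpd and Fgf2 in each other cluster.

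Fgf2 and Cebpd UMIs were more frequent in OIR rod-like cells with an Edn2 UMI than in those without one. After thinning to 1500 UMIs, Fgf2 was seen in 30 of the 89 OIR rod-like cells with an Edn2 UMI (33.7%, 24.0 to 44.5) and in 236 of the 1759 without one (13.4%, 11.9 to 15.1). Cebpd was seen in 26 of those 89 cells (29.2%, 20.1 to 39.8) and in 272 of the others (15.5%, 13.8 to 17.2), and in 27.8% (22.5 to 33.6) of cells with an Fgf2 UMI against 14.2% (12.5 to 16.0) of those without. For Stat3 with Edn2 the intervals overlapped, at 25.8% (17.1 to 36.2) with and 17.6% (15.9 to 19.5) without, as they did for Socs3 with Edn2, at 8.99% (3.96 to 16.95) with and 4.38% (3.47 to 5.44) without, and for Stat3 with Fgf2, at 23.3% (18.4 to 28.9) with and 17.1% (15.3 to 19.1) without. With cells thinned to 2500 UMIs instead, Stat3 was seen in 38.0% (31.9 to 44.5) of OIR rod-like cells with an Fgf2 UMI. It was seen in 21.7% (19.0 to 24.6) of those without, so at that depth the intervals lay apart. For Stat3 and Socs3 with Edn2 they still overlapped. Cells of 1 library are not replicates, and control had only 4 rod-like cells with an Edn2 UMI after thinning to 1500 UMIs.

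Over the 10 class and library sums, the genes most like Edn2 were Pcolce (r = 0.98), Fgf2os (r = 0.96), Dbt (r = 0.96), Rbm17 (r = 0.93) and Ipo5 (r = 0.92), and those most like Fgf2 were Arrdc3 (r = 0.95), Btc (r = 0.94), Gpcpd1 (r = 0.94), Hist1h1e (r = 0.94) and Odc1 (r = 0.94). Edn2 and Fgf2 themselves had r = 0.91, Edn2 and Lif r = 0.35, and Fgf2 and Lif r = 0.44. Pcolce encodes an enhancer of collagen processing and Btc, betacellulin, a ligand of the epidermal growth factor receptor.

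In microglia-like cells the lower OIR levels of Socs3 and Cebpd went with a different make-up of clusters. The cluster led by Selplg, P2ry12 and Tmem119, genes of resting microglia, held 149 of the 636 OIR cells and 675 of the 844 control cells. Within it Socs3 had 433.6 CPM in OIR and 591.8 CPM in control, a log2 ratio of -0.45 (-0.57 to -0.32), and Cebpd 175 and 242 CPM, a log2 ratio of -0.46 (-0.66 to -0.27), so neither reached 2-fold there. Stat3 in that cluster was higher in OIR, at 125.5 against 101 CPM in control, a log2 ratio of 0.32 (0.07 to 0.56). In the cluster led by Cst7, Ftl1 and Aif1, with 300 OIR and 162 control cells, Socs3 was low in both libraries, at 19.2 CPM in OIR and 8.70 CPM in control. Clusters nearly without control cells, led by Hmox1, by Mmp12 and by Spp1, held 293.6, 121.9 and 131.8 CPM of Socs3 in OIR. Fgf2 and Edn2 stayed at or under 20.5 CPM in both libraries in every microglia-like cluster with at least 100 cells in each.

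**Figure D5:**
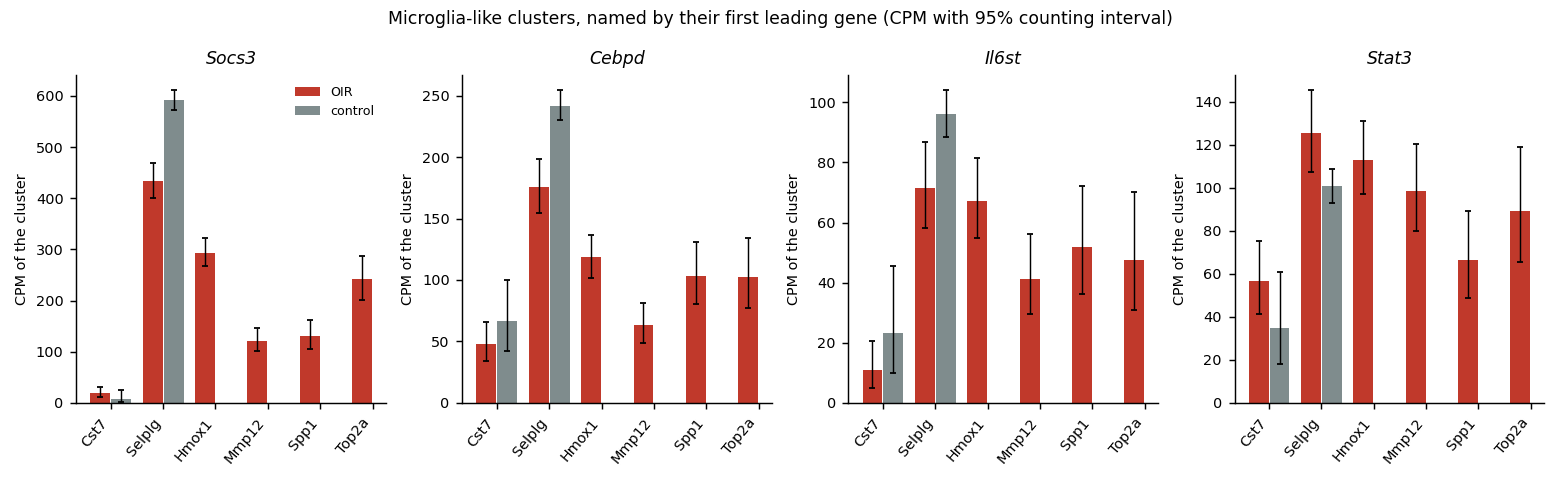
CPM of 4 genes (vertical axes) in microglia-like clusters with at least 20 OIR cells, named by their first leading gene, OIR bars left of control bars, with 95% counting intervals as lines and libraries of fewer than 10 cells in a cluster not drawn. Socs3 and Cebpd are highest in the Selplg-led cluster, where OIR lies below control for both.

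Stat3 aside, the transducers that link receptor to nucleus differed by less than 2-fold where they reached 20 CPM. Of the 15 other JAK-STAT transducers and feedback genes, 7 to 9 reached 20 CPM in each class, and none of those differed by 2-fold in any of the 5 classes. Below 20 CPM, Socs2 in microglia-like cells had 9.68 CPM in OIR and 0.75 CPM in control, and Socs1 had 7.85 and 16.9 CPM. Jak1, the kinase bound to gp130, had 107 CPM in OIR and 97.8 CPM in control rod-like cells, with a log2 ratio of 0.14 (0.03 to 0.24), and 93.5 and 87.7 CPM in OIR and control Müller glia-like cells. Among listed genes with 20 CPM, the largest in microglia-like cells were Tyk2, Stat5b and Pias1, with log2 ratios of -0.75, -0.62 and -0.61. Those in Müller glia-like cells were Ptpn11, at 0.56, Pias1, at 0.46, and Socs7, at 0.27. Rod RNA would carry 36.0 and 22.2 CPM of Ptpn11, 85.2 and 53.7 CPM of Pias1 and 64.2 and 42.4 CPM of Socs7 into OIR and control Müller glia-like cells, where 69.6 and 47.2, 66.5 and 48.5, and 59.0 and 49.1 CPM were measured. In rod-like cells Pias3, an inhibitor of STAT3, had -0.29 and Ptpn11 0.18.

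Of 15 other genes known to respond to STAT3, 12 reached 20 CPM in Müller glia-like cells, with a median log2 ratio of 0.52. Of these, 5 were at least 2-fold higher in OIR and none was at least 2-fold lower, where 2.86% of all measured genes were higher and 3.98% lower. Serpina3n had 470 UMIs (66.2 CPM) in OIR and 0 in control, Lcn2, an iron carrier of the acute phase, 1323 UMIs (186.4 CPM) and 10 UMIs (3.07 CPM), and Timp1 366 UMIs (51.6 CPM) and 3 UMIs (0.92 CPM). Gfap, the intermediate filament of reactive glia, had 145 CPM in OIR and 8.89 CPM in control, a log2 ratio of 4.03 (3.50 to 4.61), and Fosl2 was the fifth. Short of 2-fold, Bcl6 was lower there, with 15.2 CPM in OIR and 27.6 CPM in control, as were Irf1, with 19.4 and 34.7 CPM, and Junb, with 801 and 967 CPM. Mcl1, with 146 and 108 CPM, and Cebpb, with 210 and 139 CPM, were higher. In rod-like cells, where 1.90% of all measured genes were higher, 1 of 4 was, Cebpb, a relative of Cebpd, with 20.4 CPM in OIR and 4.81 CPM in control and a log2 ratio of 2.09 (1.73 to 2.45). Junb in rod-like cells had 329 and 168 CPM in OIR and control, a log2 ratio of 0.97, and Mcl1, which restrains apoptosis, one of 0.42. The part of Müller glial RNA in these rod-like values was not tested. In microglia-like cells 1 of 10 was higher, Bcl3, at 1.92, and 3 were lower, Junb at -1.36, Icam1 at -1.60 and Irf1 at -1.24, against 5.0% and 5.54% of all measured genes.

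Among 18 FGF ligands, receptors and feedback genes, those of Müller glia-like cells that passed 2-fold were lower in OIR, 2 of 10, where 3.98% of all measured genes were lower. Fgf9, another ligand, had 42.5 CPM in OIR and 95.7 CPM in control, a log2 ratio of -1.17 (-1.40 to -0.94), and Fgfrl1, a receptor without a kinase, 9.86 and 35.6 CPM, a log2 ratio of -1.85. Frs2, the adaptor of the receptors, had -0.53. The 9 Müller glia markers, summed, were also lower in Müller glia-like cells, at 8766 CPM in OIR and 15863 CPM in control. Fgfr1 was present there at 94.8 CPM in OIR and 96.6 CPM in control, a log2 ratio of -0.03 (-0.22 to 0.17). Spry2, a feedback inhibitor that FGF signalling induces, had in rod-like cells 145.9 CPM in OIR and 160.5 CPM in control, a log2 ratio of -0.14 (-0.22 to -0.05). In microglia-like cells, where 5.54% of all measured genes were lower, 2 of 5 were, Spry1 at -1.32 and Dusp6 at -1.14, and Etv5 had -0.76.

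Of 13 other survival factors, 4 to 7 reached 20 CPM in each class. Of these, 1 of 5 was at least 2-fold lower in OIR in bipolar-like cells, where 1.16% of all measured genes were. In microglia-like cells 1 of 5 was, where 5.54% of all measured genes were. In the other classes none passed 2-fold. Nxnl1, which encodes the rod-derived cone viability factor, had 426.6 CPM in OIR and 641 CPM in control rod-like cells, with a log2 ratio of -0.59 (-0.63 to -0.54). In bipolar-like cells it was the 1 gene of the list of 13 to pass 2-fold, with 35.9 CPM in OIR and 110.5 CPM in control and a log2 ratio of -1.62 (-1.91 to -1.34), where rod RNA would carry 43.9 and 98.4 CPM. Müller glia-like cells had log2 ratios of -0.94 for Ptn, with 533 CPM in OIR and 1021 CPM in control, -0.80 for Mdk and 0.79 (0.32 to 1.29) for Bdnf, the brain-derived neurotrophic factor. The 9 Müller glia markers, summed, were lower there by a similar fold to Ptn and Mdk, at 8766 CPM in OIR and 15863 CPM in control. In rod-like cells Manf had a log2 ratio of 0.30 and Gas6 one of -0.25. In microglia-like cells Serpinf1, which encodes pigment epithelium-derived factor, was lower in OIR at -1.50, Gas6 had 0.55, and Nxnl1 had -0.64, with 14.5 CPM in OIR and 22.7 CPM in control where rod RNA would carry 19.7 and 23.9 CPM.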

How the data were processed

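The authors deposited 2 matrices of raw UMI counts, genes by cell barcodes; Cell Ranger 3.0.2 and build mm10 are named in the submitters' processing notes, and neither the annotation release nor the use of strand is given in the sources used here. OIR had 7283 barcodes with 49773742 UMIs and control 10826 barcodes with 50081145 UMIs. Kept barcodes had 500 or more genes and no more than 10% mitochondrial UMIs. The doublet caller of scanpy 1.11.5 marked 1 OIR and 0 control barcodes, so the top-scoring barcodes at 0.8% per 1000 were removed (424 OIR, 938 control). Cells were log-normalised and scaled, then clustered without integration (2000 variable genes, 30 components, 20 neighbours, Leiden resolution 1), leaving out the members, the 79 listed genes and genes overlapping them. Clusters took a class name from marker genes at a mean log2 lead of 0.5 over other classes, a limit set with the data at hand. Unnamed or very deep clusters of at least 100 cells were clustered once more.

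CPM was computed here with exact Poisson intervals, ratios of OIR over control with exact conditional binomial intervals, and shares with Clopper-Pearson intervals, all at 95%. With 1 library per group no test was made. Ratios against 0 used 3 counts as the floor, and no ratio is given where both counts are at or under 3. The steps were tested on simulated counts. The members and the 6 lists were chosen with earlier results of these data known. Named genes were the members, the 3 largest ratios per list in rod-like, Müller glia-like and microglia-like cells with an interval excluding 0, and the 5 genes most like Lif, Edn2 and Fgf2; other listed genes were named after their values were seen. A gene that this rule names is not reported here. Gene positions came from the GENCODE annotation of mm10.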

Additional observations from a re-analysis of the deposited data

Results flagged for a closer look

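Socs3 and Cebpd moved in opposite directions in different cell classes under the same comparison of OIR with control. The log2 ratio of Socs3 was 3.11 in rod-like cells and 1.36 in cone-like cells, and -1.24 in microglia-like cells. The log2 ratio of Cebpd was 4.05 in rod-like cells and 2.38 in cone-like cells, and -1.07 in microglia-like cells. Each interval excluded 0, but each group is 1 library, so the difference between the classes was not tested.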

How the results depend on the processing

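No paired analysis was possible because each group is 1 library. The log2 ratios of members past 2-fold kept their direction in all 113 values under the alternatives, and 27 of these lay outside the reported interval. Of 223 values for other members, 213 kept their direction. A stricter cell filter (at least 1000 genes, at most 5% mitochondrial UMIs) left 168 OIR and 30 control Müller glia-like cells, and 181 OIR and 47 control cone-like cells. Under that filter the ratio was 1.967 for Stat3 in rod-like cells. In cone-like cells it was 1.76 for Stat3, 2.255 for Socs3, 6.76 for Cebpd and 2.93 for Fgf2. With doublet calls kept, rod-like Socs3 had 3.602 and Cebpd 4.445. As means over cells, the ratio was 2.65 for Stat3, 5.25 for Cebpd and 5.94 for Edn2 in rod-like cells, 0.65 for Socs3, 2.89 for Cebpd and 2.16 for Fgf2 in cone-like cells, and -1.405 for Socs3 in microglia-like cells. At resolution 0.5, Cebpd had 4.355 in rod-like and -0.92 in microglia-like cells. The microglia-like class then held other cells, 417 in OIR and 715 in control, with S100a9 and S100a8 among its 10 leading genes. A cluster of 362 OIR and 166 control cells took the name border macrophage. With median-of-ratios scaling, which moved microglia-like cells by 0.107, Socs3 had -1.13 there.

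Alternatives chosen after seeing the data were as follows. With unscaled clustering, Cebpd had 3.835 in rod-like cells, and Socs3 0.93, Cebpd 3.72 and Fgf2 2.40 in cone-like cells. Without the E2f6-led cluster, rod-like Stat3 had 1.985, Socs3 2.76 and Fgf2 2.47, and without very deep clusters Cebpd had 4.35. In the Selplg-led cluster alone, Socs3 had -0.45 and Cebpd -0.46.

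Without the 20 CPM minimum, 4 of 9 members with a UMI were higher and 1 lower in bipolar-like cells. Of 10 members, 7 were higher in rod-like, 6 in cone-like and 5 in Müller glia-like cells, and in microglia-like cells 3 were higher and 2 lower. Those higher in microglia-like cells were Edn2, Ednrb and Fgf2, with 12, 11 and 47 UMIs in OIR. With the minimum kept, members lower in microglia-like cells numbered 1 at resolution 0.5, 1 with median-of-ratios scaling and 0 in the Selplg-led cluster. Without the minimum, genes higher and lower in OIR numbered 1293 and 89 for rods, 417 and 145 for cones, 347 and 367 for bipolar cells, 611 and 737 for Müller glia, and 1068 and 714 for microglia. These were 7.08% and 0.488% of 18250 genes, 2.46% and 0.854% of 16971, 2.06% and 2.17% of 16876, 3.51% and 4.23% of 17424, and 6.36% and 4.25% of 16791. At resolution 0.5, 83 genes were higher in rod-like and 101 in cone-like cells, without very deep clusters 83 in rod-like cells, and in the Selplg-led cluster 191 were higher and 71 lower. Thinning to 1000 or 2500 UMIs moved 82 of 154 shares. The causes were not tested. Counts near the floor and the few control cells of small classes limit Lif, Edn2 outside rod-like cells, and Ednrb.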
